A study of Caenorhabditis elegans with 20 samples.

Results

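The granulin 1 strain of Caenorhabditis elegans was set against the wild type, over all genes, in total RNA of whole day 1 adults. Libraries were chosen by their strain label, which gave 4 granulin 1 and 4 wild-type libraries, 8 of the 20 in the study. Of 46778 gene IDs, 15737 had enough reads to be tested. The study profiled 5 strains with 4 libraries each, to ask what single granulins do in animals that lack progranulin.

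Granulin 1 animals, AWK33, carry pgrn-1(-) and granulin 1(+). The wild type was N2. Levels in the other strains are given beside some genes: the null CF3050, which is pgrn-1(-), and the granulin 2 and granulin 3 strains AWK43 and AWK107, both also pgrn-1(-). No animal received further treatment, all were grown from a timed egg lay, and every group was day 1 of adulthood. For the granulin 1 sequence, the sources used here give no promoter, copy number or insertion site. Because granulin 1 was carried by 1 strain, the lack of progranulin, the added granulin and any other difference of that strain from N2 cannot be told apart. Whether replicate libraries stem from separate cultures is not in the labels; p-values thus measure only how these libraries vary, which may be technical variation. Both strains have the letters A to D in their sample names, as does granulin 3, while the null and granulin 2 have E to H. The sources used here do not explain the letters, and if they mark batches, differences of granulin 1 from the null cannot be told apart from them.

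Progranulin is a secreted glycoprotein that reaches the lysosome and is cut there into small cysteine-rich peptides, the granulins. Loss of human progranulin causes frontotemporal dementia, and loss of both copies causes a lysosomal storage disease. In C. elegans, HLH-30, the counterpart of mammalian TFEB, drives genes of lysosomes and autophagy.

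Depth was 48951123 to 63655561 reads per library in granulin 1 and 49262671 to 55184445 in wild type. Granulin 1 replicate 3 and wild type replicate 4 stood apart from the rest. Their ribosomal RNA shares were 25.9% and 44.8%, against 0.919% to 5.92% in the other 6. The median gene of granulin 1 replicate 3 lay 1.27 log2 units from the other granulin 1 libraries, and that of wild type replicate 4 lay 0.832 log2 units from the other wild-type libraries. For the other 6 libraries this distance was 0.308 to 0.613. In granulin 1 replicate 3 long protein-coding genes were also low relative to the mean of all libraries in the study. The slope of this deviation was -0.884 log2 units per doubling of transcript length.

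A small set of genes separated the strains. Of the 15737 genes, 51 (0.324%) passed limma, a linear model with moderated variances, at a Benjamini-Hochberg adjusted p under 0.05, 41 of them higher in granulin 1 (0.261%) and 10 lower (0.0635%). The split was 12 higher and 8 lower under upper-quartile scaling. Log2 fold changes of the higher genes ran from 1.23 to 4.85 with a median of 2.17, and the median of the lower genes was -3.38. In all 51 the 4 granulin 1 libraries did not overlap the 4 wild-type libraries, a property of 4.15% of all genes tested (2.76% with granulin 1 higher and 1.39% with it lower). This separation was read from the libraries that gave the calls, so it describes them and is no separate evidence. Chromosome V held 20 of the 51 (39.2%), against 19.7% of all genes tested, and 22 of the 51 (43.1%) averaged under 1 CPM (read counts relative to library size, scaled between libraries), against 31.4% of all. Without granulin 1 replicate 3 and wild type replicate 4, 38 genes passed, 32 higher and 6 lower, of which 30 were among the 51. The count was 28 without granulin 1 replicate 1, 30 without wild type replicate 2 and 27 without wild type replicate 3. Fold changes below are granulin 1 minus wild type unless another strain is named, ± the moderated standard error with 4 libraries per strain, on the log2 (CPM plus prior count) scale, which understates the change of rarely read genes. For the 2 other comparisons given beside single genes, the share of genes passing the same test was 0.47% for granulin 1 minus null (0.432% higher and 0.0381% lower) and 5.58% for granulin 1 minus granulin 3 (0.261% higher and 5.32% lower).

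**Figure D1:**
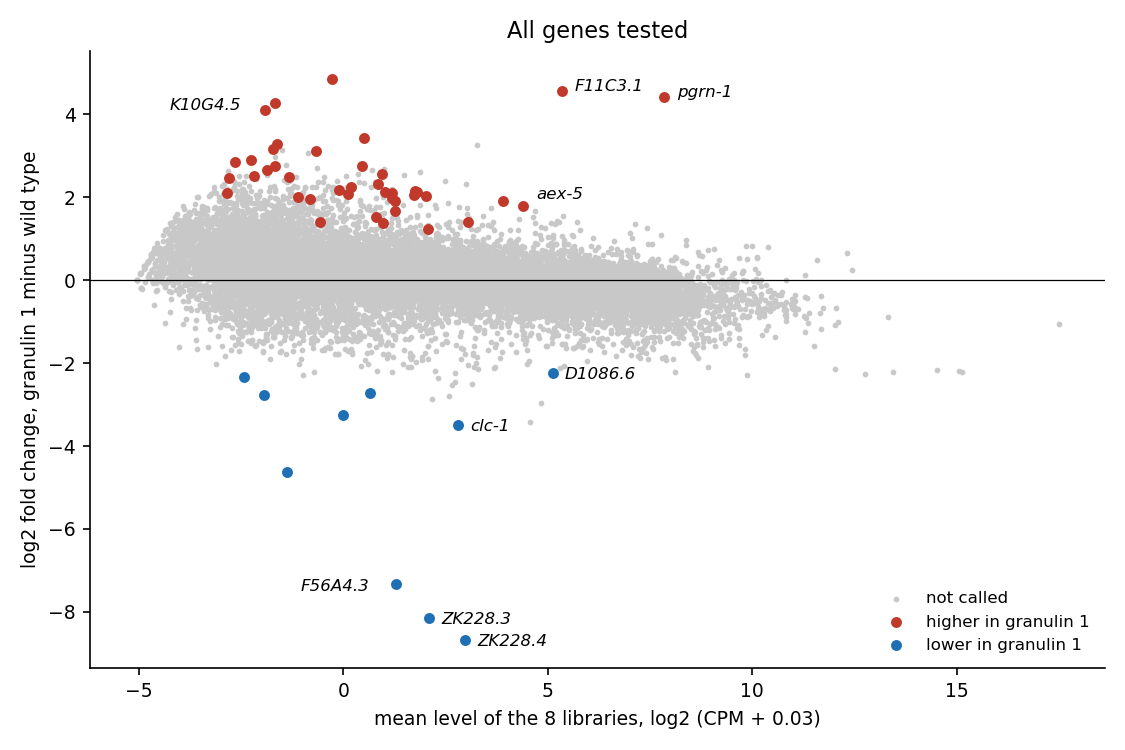
Each point is 1 of the 15737 genes tested. The horizontal axis is the mean level of the 8 libraries, in log2 (CPM plus 0.03), and the vertical axis is the log2 fold change of granulin 1 minus wild type. Coloured points are the 41 higher and 10 lower genes that passed. ZK228.3, ZK228.4 and F56A4.3 lie lowest, at -8.14, -8.67 and -7.34, and F11C3.1 and pgrn-1 are the highest of the well-read genes, at 4.55 and 4.41.

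The gene that the strain was built on was checked first. On chromosome I of build ce11, pgrn-1, the progranulin gene (WBGene00011936, 11701631 to 11703698), had 235, 283, 1035 and 221 CPM in granulin 1 replicates 1 to 4, against 10.7, 12.4, 15.03 and 36.9 CPM in wild-type replicates 1 to 4. Granulin 1 replicate 3 was far above its 3 companions, wild type replicate 4 was the highest of its group, and the groups did not overlap. The level averaged 443 ± 395 CPM in granulin 1 and 18.8 ± 12.21 CPM in wild type (SD, n = 4 each). The log2 fold change was 4.41 ± 0.47 (limma, Benjamini-Hochberg adjusted p = 1.97e-05), 3.89 without granulin 1 replicate 3 (adjusted p = 1.71e-05) and 4.80 without wild type replicate 4 (adjusted p = 1.32e-05). The null had 0.206 ± 0.11 CPM (SD, n = 4). The files give 1 count per gene, so reads of the added granulin 1 sequence and of the resident locus cannot be told apart. Fitted on the 8 libraries alone, the fold change was 4.45 with an adjusted p of 0.0523.

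Directly upstream, 2.46 kb from the start of pgrn-1 to its own, lies sri-12 (WBGene00005524, chromosome I, 11699169 to 11701178), of a family of serpentine chemoreceptor genes. It had 0.329, 0.388, 0.416 and 0.192 CPM in granulin 1 replicates 1 to 4, against 0, 0.0223, 0 and 0.0847 CPM in wild type, which is 12 to 25 reads against 0 to 2. Its log2 fold change was 2.90 ± 0.45 (limma, Benjamini-Hochberg adjusted p = 0.00337), with no read in any null library and means of 0.974 CPM in granulin 2 and 0.583 CPM in granulin 3. All granulin 1 libraries were above all wild-type ones, and so were those of both other granulin strains. The next gene tested on the other side, oac-19, had 0.59 ± 0.56 (adjusted p = 0.87).

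F11C3.1 was high in the granulin 1 strain and low, at like levels, in the 4 other strains. This gene (WBGene00008695, chromosome I, 14867924 to 14871365) had 64.7, 67.8, 113 and 66.8 CPM in granulin 1 replicates 1 to 4, against 3.33, 2.94, 3.28 and 3.304 CPM in wild type. In granulin 1, replicates 1, 2 and 4 lay within a few CPM of each other and replicate 3 was above them, the wild-type libraries lay close together, and the groups did not overlap. Means were 78.0 ± 23.2 CPM in granulin 1 and 3.21 ± 0.184 CPM in wild type (SD, n = 4 each), for a log2 fold change of 4.55 ± 0.27 (limma, Benjamini-Hochberg adjusted p = 8.9e-10). The null averaged 3.43 CPM, a difference of 4.46 ± 0.27 (adjusted p = 1.3e-09), and granulin 3 averaged 2.84 CPM, a difference of 4.76 ± 0.27 (adjusted p = 7.56e-10). The granulin 2 mean was 2.88 CPM. These differences share the granulin 1 libraries. Leaving out granulin 1 replicate 3 gave 4.36.

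Among the neighbours of F11C3.1, only aex-5 was called. The closest downstream genes, unc-122 and frm-1, had 0.94 ± 0.52 and -0.82 ± 0.44 (limma, Benjamini-Hochberg adjusted p = 0.675 and 0.652), and the body-wall muscle myosin gene unc-54, upstream, had -0.66 ± 0.81 (adjusted p = 0.881). The gene aex-5 (chromosome I, 14850052 to 14855827), named here after its values were seen, encodes a proprotein convertase needed for the expulsion step of defecation. It had 21.1, 22.4, 64.6 and 25.7 CPM in granulin 1, against 7.11, 6.97, 8.32 and 12.96 CPM in wild type. Every granulin 1 library was above every wild-type one, replicate 3 by the most. The log2 fold change of aex-5 was 1.80 ± 0.32 (adjusted p = 0.0104), 1.42 without granulin 1 replicate 3 (adjusted p = 0.0135), and it lost its call without wild type replicate 2 (adjusted p = 0.0538). The call was also lost under upper-quartile scaling and in a fit of the 8 libraries alone (adjusted p = 0.57). Mean levels of aex-5 were 33.4 CPM (granulin 1), 36.9 CPM (granulin 2), 19.5 CPM (granulin 3) and 10.2 CPM (null).

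The 10 lower genes began with a pair of neighbours on chromosome V that were nearly without reads in granulin 1. ZK228.3 (WBGene00013946, 18458241 to 18461250) had 0 CPM in all 4 granulin 1 libraries, against 6.15, 5.72, 10.3 and 11.6 CPM in wild type, where 257 to 507 reads were counted per library. Taking a floor of 3 reads over the 4 granulin 1 libraries, which covers counting error only, the gene was at least 642-fold lower (fitted log2 fold change -8.14 ± 0.31, limma, Benjamini-Hochberg adjusted p = 7.88e-13). ZK228.4 (WBGene00013947, 18462787 to 18465426), 4.55 kb further along, had 2 reads in granulin 1 in all, in replicates 1 and 4, against 10.9, 13.7, 11.9 and 26.1 CPM in wild type. Its fitted log2 fold change was -8.67 ± 0.40 (adjusted p = 1.59e-11), and the pooled wild-type level was 1691 times that of granulin 1, with an exact counting interval of 468 to 13970 at 95%. Both genes were also at or near 0 in granulin 3, with means of 0 and 0.0064 CPM, and were read in the null, at 8.25 and 24.9 CPM, and in granulin 2, at 8.30 and 20.3 CPM. The flanking genes ZK262.9 and Y51A2D.18 had -1.61 ± 0.42 and -0.55 ± 0.49 with no call (adjusted p = 0.149 and 0.858).

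Another pair of genes on chromosome V had reads in wild type almost alone. F56A4.3 (WBGene00018911, 2453414 to 2456147) had no read in any granulin 1 library, against 3.15, 3.60, 5.85 and 6.78 CPM in wild type, which puts granulin 1 at least 366-fold lower over the same floor. It also had no read in any library of the null, granulin 2 and granulin 3, so all 4 pgrn-1(-) strains were at 0. The pseudogene WBGene00017496 (2345676 to 2348123) had no read in granulin 1 and 25 to 32 reads per wild-type library, at least 52.6-fold lower. Fitted log2 fold changes were -7.34 ± 0.31 and -4.64 ± 0.31 (limma, Benjamini-Hochberg adjusted p = 2.88e-12 and 7.68e-09). The spread in these fits came from all strains, and all but the wild type were at or near 0. Fitted on the 8 libraries alone, adjusted p was 4.98e-05 for F56A4.3 and 0.00219 for WBGene00017496. Both passed the filter on low values through the wild-type libraries only, so a difference was built into their being tested.

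Further lower genes were read in every strain. The gene clc-1 (WBGene00000522, chromosome X, 11047446 to 11049275) encodes a claudin-like protein of epithelial cell junctions. It had 0.899, 0.744, 1.63 and 1.06 CPM in granulin 1, against 9.28, 9.68, 11.1 and 20.8 CPM in wild type. All granulin 1 libraries were far below all wild-type ones, with replicate 4 the highest in wild type. The log2 fold change was -3.50 ± 0.33 (limma, Benjamini-Hochberg adjusted p = 2.92e-06), -3.71 without granulin 1 replicate 3 and -3.23 without wild type replicate 4. It was -3.26 ± 0.33 against the null (adjusted p = 6.18e-06), at 10.2 CPM, and -4.87 ± 0.33 against granulin 3 (adjusted p = 1.47e-08), at 32.6 CPM. The granulin 2 mean was 7.52 CPM. Of the 5 claudin-like genes, clc-1 to clc-5, clc-1 was the 1 called. The next gene tested on the chromosome, C09F12.2, had 1.17 ± 0.51 and no call (adjusted p = 0.484), and beyond it the lipocalin-like genes lpr-3, lpr-6, lpr-5 and lpr-4, had -2.53, -2.07, -1.81 and -1.77 with no call (adjusted p between 0.262 and 0.431).

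D1086.6 (WBGene00008393, chromosome V, 14079801 to 14081766) had 9.996, 9.07, 28.5 and 6.63 CPM in granulin 1, against 69.6, 45.2, 38.3 and 69.8 CPM in wild type. Replicate 3 was the highest of granulin 1 and still under the lowest wild-type library. Its log2 fold change was -2.23 ± 0.39 (limma, Benjamini-Hochberg adjusted p = 0.0104) and -2.67 without granulin 1 replicate 3 (adjusted p = 0.000171). Against the null, at 45.4 CPM, it was -1.92 ± 0.39 (adjusted p = 0.0222), and against granulin 3, at 85.3 CPM, it was -2.83 ± 0.39 (adjusted p = 0.000372). H03E18.1 on the X chromosome had 0.502, 0.357, 0.271 and 0.336 CPM in granulin 1, against 1.48, 3.40, 2.04 and 3.94 CPM in wild type, with a log2 fold change of -2.72 ± 0.43 (adjusted p = 0.00378). It was -1.56 ± 0.43 against the null (adjusted p = 0.17). Both genes kept their calls whichever library of the 8 was left out, in fits that still held the other strains. Fitted on the 8 libraries alone, neither passed (adjusted p = 0.457 for D1086.6 and 0.124 for H03E18.1). D1086.6 also lost its call under upper-quartile scaling and on the deposited scale.

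The last 3 lower genes were rare transcripts. A neighbouring pair on chromosome IV, Y38H8A.12 and the pseudogene WBGene00045062, had 0 to 6 and 1 to 25 reads per library in granulin 1, against 14 to 18 and 36 to 84 in wild type. Their log2 fold changes were -2.77 ± 0.47 and -3.26 ± 0.58 (limma, Benjamini-Hochberg adjusted p = 0.00917 and 0.0107), and in granulin 3 they were as low, at 0.0252 and 0.151 CPM. The astacin metalloprotease gene nas-6 had 1 to 5 reads in granulin 1, against 7 to 15 in wild type (-2.32 ± 0.49, adjusted p = 0.041). Its call held in 1 of 8 fits with a library left out, the one without granulin 1 replicate 2, and the adjusted p ran up to 0.163 in the others. It averaged 0.0362 CPM in granulin 1 and 0.0377 CPM in the null.

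**Figure D2:**
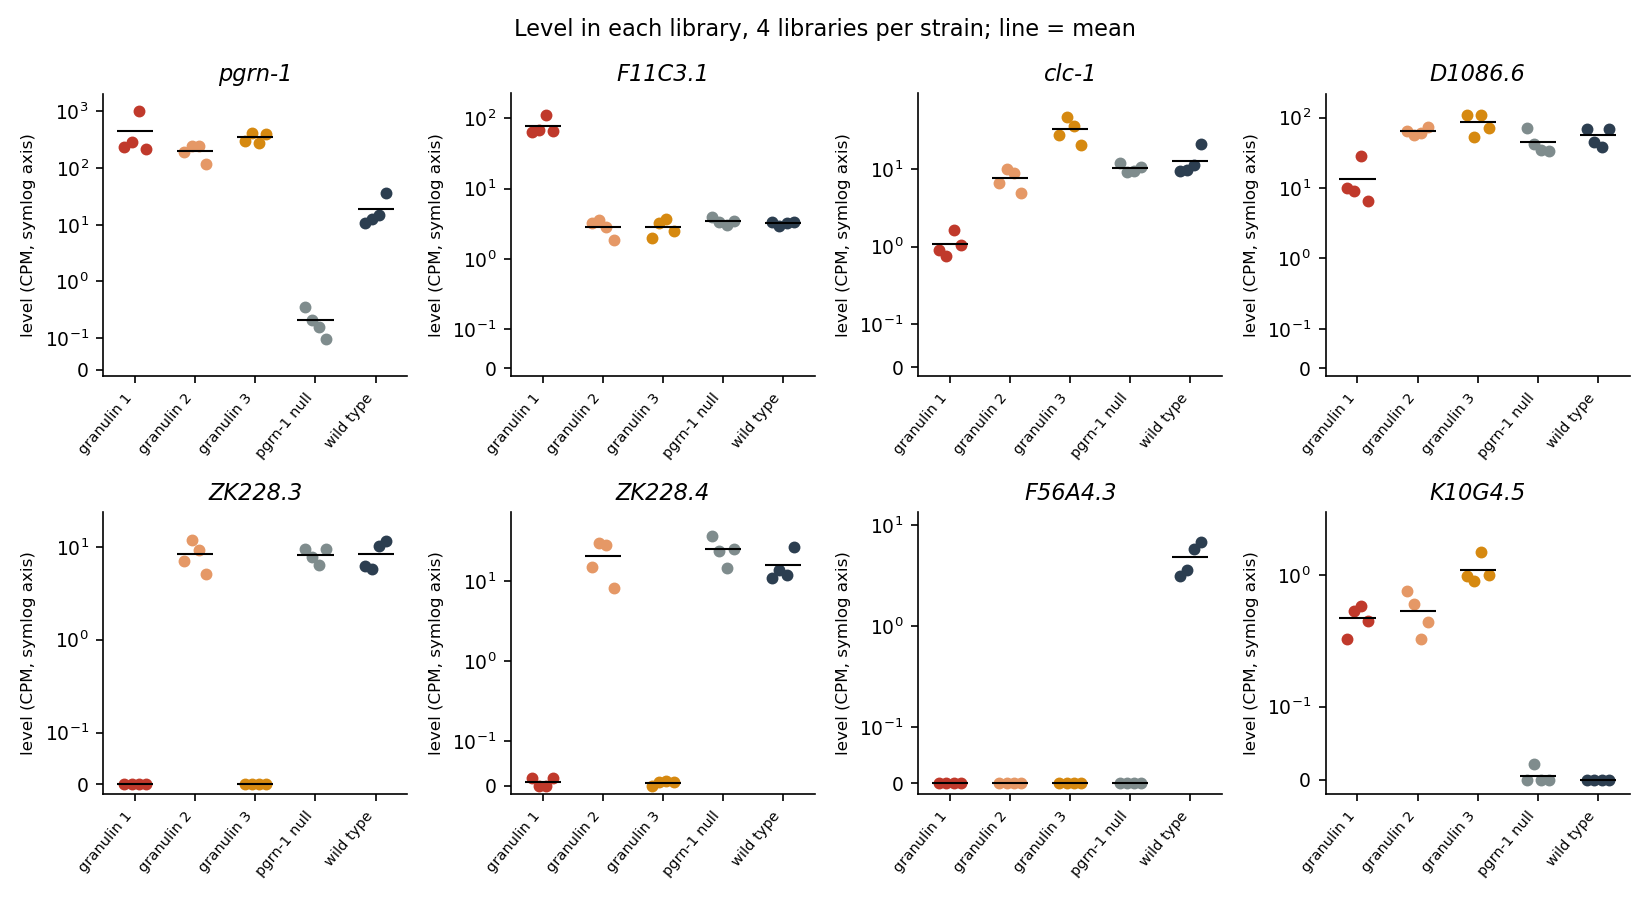
Level of 8 genes in each library, in CPM on a symmetric log axis that is linear below 0.1. Each point is a library, each line the mean of 4. F11C3.1 is highest, and clc-1 and D1086.6 are lowest, in granulin 1. ZK228.3 and ZK228.4 are at or near 0 in granulin 1 and granulin 3, F56A4.3 is at 0 in all but wild type, and K10G4.5 is read in the 3 granulin strains and at or near 0 in the null and wild type.

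Some called genes were neighbours on the chromosomes. Chaining called genes at most 100 kb apart, a distance chosen after the positions were seen, put 19 of the 51 into 6 stretches and left the others with no called gene that close. Of these, 5 held 2 genes each: sri-12 with pgrn-1, aex-5 with F11C3.1, math-38 with fbxa-158 on chromosome II, WBGene00045062 with Y38H8A.12, and ZK228.3 with ZK228.4. The sixth, on chromosome V from 17207208 to 17376745, held 9 higher genes among 22 tested. Its other 13 genes had a median log2 fold change of 0.78, and 11 of them were positive. Stretches were found from the calls, so these counts are a description.

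Of the 9 called genes of this stretch, 169.5 kb long, fbxa-189, fbxa-188, fbxa-134 and skr-5 are named as members of families that serve ubiquitin ligases. F-box proteins bind substrates and, through Skp1-type proteins such as those of the skr family, join them to cullin ligases; in C. elegans these are large families, many of whose members sit in clusters. The F-box A gene fbxa-189 (WBGene00009840, chromosome V, 17345214 to 17347781) had 3.75, 4.64, 10.8 and 3.59 CPM in granulin 1, against 0.812, 0.979, 1.497 and 1.44 CPM in wild type. Replicate 3 was again the highest in granulin 1, and the lowest granulin 1 library was above the highest wild-type one. The fitted change was 2.13 ± 0.34 (limma, Benjamini-Hochberg adjusted p = 0.00379) and 1.77 without granulin 1 replicate 3 (adjusted p = 0.00679). The call of fbxa-189 was lost under upper-quartile scaling and in a fit of the 8 libraries alone (adjusted p = 0.393). The null had 1.22 CPM, granulin 2 had 3.80 and granulin 3 had 5.57.

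K10G4.5 (WBGene00010754, chromosome V, 17298282 to 17301475) had 0.329, 0.527, 0.579 and 0.449 CPM in granulin 1 and no read in any wild-type library, at least 26.2-fold higher over a floor of 3 wild-type reads in all (fitted log2 fold change 4.1 ± 0.33, limma, Benjamini-Hochberg adjusted p = 2.35e-07). It had 1 library with a read in the null and means of 0.528 CPM in granulin 2 and 1.09 CPM in granulin 3. Next to fbxa-189, skr-5, whose product is related to Skp1, had 0.778, 0.760, 2.53 and 0.352 CPM in granulin 1, against 0.0406, 0.0445, 0.0809 and 0.169 CPM in wild type. The groups did not overlap, although the wild-type libraries held only 2 to 4 reads. For skr-5 the log2 fold change was 3.12 ± 0.51 (adjusted p = 0.00494). That call was lost under upper-quartile scaling and in a fit of the 8 libraries alone (adjusted p = 0.377).

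Among the other 6 called genes of the stretch, F47H4.2 had the smallest p, at 2.17 ± 0.30 (limma, Benjamini-Hochberg adjusted p = 0.000744), and Y68A4A.13 the largest, at 3.42 ± 0.71 (adjusted p = 0.0396). F47H4.2 was even across libraries, with 1.37, 1.58, 1.59 and 1.38 CPM in granulin 1, against 0.426, 0.289, 0.405 and 0.169 CPM in wild type. In a fit of the 8 libraries alone it was not called (adjusted p = 0.203). Y68A4A.13 was uneven, with 0.882, 0.853, 8.56 and 0.417 CPM in granulin 1, against 0.0406, 0.0668, 0.0809 and 0.296 CPM in wild type. Its call was lost without any 1 of granulin 1 replicates 1, 2 and 3 or wild type replicates 1, 2 and 3 (adjusted p up to 0.144). The pseudogene WBGene00009838 had 3.28 ± 0.48 (adjusted p = 0.00208), fbxa-188 had 2.07 ± 0.38 (0.0141), fbxa-134 had 3.16 ± 0.61 (0.0194) and Y20C6A.1 had 1.52 ± 0.29 (0.0178). F47H4.2 and Y20C6A.1 were named after their values were seen. Calls were lost for fbxa-188 without wild type replicate 2 (0.0584), for fbxa-134 without wild type replicates 3 or 4 (up to 0.104) and for Y20C6A.1 without granulin 1 replicates 1 or 4 or wild type replicate 2 (up to 0.088). Under upper-quartile scaling fbxa-188, fbxa-134 and Y68A4A.13 lost theirs as well. Granulin 2 and granulin 3 had higher means than wild type for all 9 genes. Among these genes lies lsy-27, which had -0.47 and no call (adjusted p = 0.888).

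**Figure D3:**
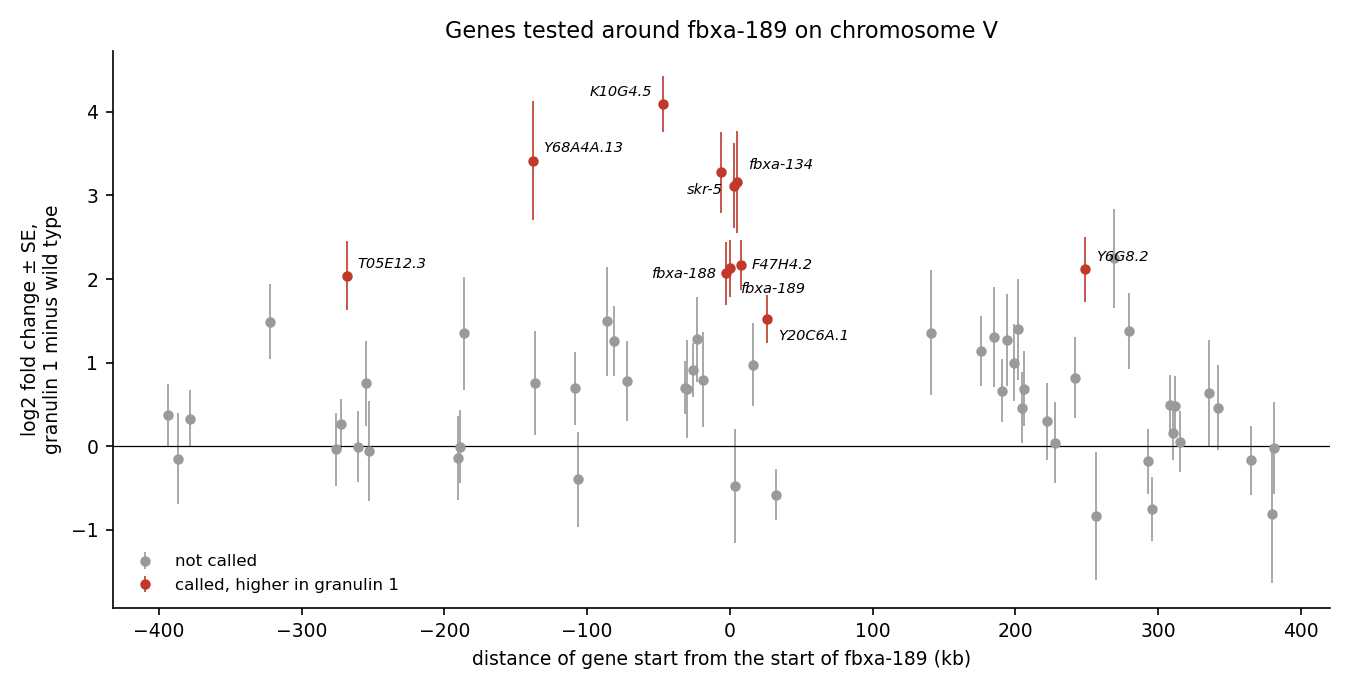
Log2 fold change with its standard error, granulin 1 minus wild type, for the genes tested around fbxa-189. The horizontal axis is the distance of each gene's start from that of fbxa-189 in kb. The 9 called genes of the stretch lie between Y68A4A.13 on the left and Y20C6A.1 on the right, most of them close to fbxa-189, and T05E12.3 and Y6G8.2 are called outside it.

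Over the whole F-box A list, 4 of 117 genes tested rose in granulin 1 (3.42%, against 0.261% of all genes) and none fell. The fourth, fbxa-158 on chromosome II, had 4 to 33 reads per library in granulin 1, against 0 to 1 in wild type (2.47 ± 0.49, limma, Benjamini-Hochberg adjusted p = 0.0264). It kept its call in 4 of 8 fits with a library left out, and lost it without granulin 1 replicate 2 or wild type replicates 1, 3 or 4 (up to 0.113). The list's median log2 fold change was 0.54, against 0.01 over all genes, with 97 of the 117 positive. It was 0.23 without granulin 1 replicate 3, 0.64 without wild type replicate 4 and 0.44 without both, where the list had 4, 2 and 1 calls. With voom it had 1 call and under upper-quartile scaling 0. Close by, math-38, whose protein carries the MATH domain of another ligase adaptor family, had 5.21, 4.15, 9.10 and 3.25 CPM in granulin 1, against 1.503, 0.556, 0.890 and 2.03 CPM in wild type (2.15 ± 0.41, adjusted p = 0.0178). It was the 1 call among 59 MATH and BTB-MATH genes (1.69%), and was lost under upper-quartile scaling and without granulin 1 replicate 1 or wild type replicates 2 or 3 (up to 0.0994). These families hold near-identical copies, between which the counting may have split or dropped reads.

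Genes of innate defence gave a few calls. The invertebrate-type lysozyme gene ilys-2 had 4.32, 2.93, 5.14 and 2.05 CPM in granulin 1, against 0.893, 0.801, 0.647 and 1.10 CPM in wild type. Its log2 fold change was 1.97 ± 0.35 (limma, Benjamini-Hochberg adjusted p = 0.0104), lost without granulin 1 replicate 1 or wild type replicate 3 (up to 0.0558), and it was the 1 call among 33 lysozyme and saposin-like genes (3.03%), which had none under upper-quartile scaling. Of 114 C-type lectin genes tested, 2 were higher (1.75%, against 0.261% of all genes); with voom, under upper-quartile scaling and without both libraries that stood apart, none was. The first, clec-86, had 1.59, 1.88, 5.19 and 0.897 CPM in granulin 1, against 0.183, 0.267, 0.465 and 0.212 CPM in wild type (2.74 ± 0.49, adjusted p = 0.0107), and kept its call in all 8 fits. The other, clec-60, known as a gene induced by bacterial infection, had 10 to 13 reads in granulin 1, against 0 to 2 in wild type (2.1 ± 0.42, adjusted p = 0.0283), and kept it in 1 of 8, without wild type replicate 4. Neither lectin passed against the null (adjusted p = 0.63 and 0.818).

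The pals genes, some of which rise with infection by microsporidia or a virus in C. elegans, gave 1 call of 23 (4.35%, against 0.261% of all genes called higher), and none with voom, library weights, upper-quartile scaling or the deposited scale. It was pals-3, with 0.190, 0.233, 0.760 and 0.176 CPM in granulin 1, against 0, 0.0668, 0.0809 and 0 CPM in wild type (2.52 ± 0.53, limma, Benjamini-Hochberg adjusted p = 0.041). Its call was lost without any 1 of the 4 granulin 1 libraries or wild type replicates 1 or 4 (adjusted p up to 0.165). All 23 genes had a positive log2 fold change, with a median of 0.78, which was 0.17 without granulin 1 replicate 3. The mean log2 CPM of the list was -0.43, -0.02, 1.45 and -0.60 in granulin 1 replicates 1 to 4, against -0.86, -0.85, -0.73 and -0.47 in wild type, so that replicate 3 was far above the rest and the groups overlapped. A shift of this kind was not particular to pals genes. Of 51 transthyretin-like genes, 48 were positive, with a median of 0.61, which was 0.03 without granulin 1 replicate 3.

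In the cilium list, dyf-3 was the 1 call of 31 (3.23%, against 0.261% of all genes called higher), and there was none with voom. The median log2 fold change of the list was -0.31, with 9 of the 31 genes positive. The gene dyf-3 encodes the counterpart of CLUAP1, a protein of intraflagellar transport. Levels were 4.38, 6.34, 2.21 and 8.59 CPM in granulin 1, against 1.30, 1.25, 0.870 and 1.19 CPM in wild type, with every granulin 1 library above every wild-type one. The log2 fold change was 2.05 ± 0.43 (limma, Benjamini-Hochberg adjusted p = 0.041) and 2.42 without granulin 1 replicate 3 (adjusted p = 0.0101), the 1 fit of 8 that kept the call (up to 0.174 in the others). Against the null, at 0.609 CPM, it was 3.1 ± 0.43 (adjusted p = 0.000486).

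Among the largest increases were also genes outside these families, most at a few reads. The pseudogene WBGene00005646 on chromosome V had 0.623, 0.775, 2.95 and 1.89 CPM in granulin 1 and 3 reads in the wild-type libraries together (4.85 ± 0.49, limma, Benjamini-Hochberg adjusted p = 7.7e-06), a pooled level 85.2 times that of wild type with an exact counting interval of 28.9 to 415, and it passed the filter through granulin 1 only. F22E5.8 (2.75 ± 0.48, adjusted p = 0.0104) and W10C8.6 (2.84 ± 0.45, adjusted p = 0.00379) kept their calls in all 8 fits; their wild-type libraries held 0 to 4 and 0 to 1 reads. K08F9.3 (2.64 ± 0.49, adjusted p = 0.017) lost its call without granulin 1 replicate 1 or wild type replicates 2 or 3 (up to 0.086), and WBGene00010999 (2.56 ± 0.49, adjusted p = 0.0178) without wild type replicates 2 or 3 (up to 0.0921). F59B2.12 had no read in wild type and 18 to 55 in granulin 1, at least 31.6-fold higher over the floor (4.26 ± 0.91, adjusted p = 0.0464), and lost its call whichever library was left out (0.0645 to 0.173). In the null it ran from 0 to 1.13 CPM.

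No gene of the lysosomal and autophagy lists passed. The lists held 20 lysosomal proteases, 30 other lysosomal hydrolases, 31 genes of lysosomal membrane and trafficking, 21 of the vacuolar ATPase, 28 of autophagy and 15 of HLH-30 and the lysosomal TOR regulators. Their median log2 fold changes were -0.37, 0.12, -0.11, -0.07, -0.21 and -0.49, against 0.01 over all genes. On the deposited scale, where the median of all genes was 0.46, the medians were 0.11, 0.60, 0.37, 0.41, 0.27 and -0.01. Without the pair of libraries that stood apart they were -0.02, 0.08, 0.12, -0.02, 0.03 and 0.11. The smallest p of each list belonged to cpr-8, crn-6, glo-3, vha-12, unc-51 and hlh-30, with adjusted p of 0.635, 0.261, 0.675, 0.721, 0.577 and 0.571. With library weights, a fit that stopped before converging, 1 of the 30 other lysosomal hydrolases was called higher.

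The TFEB counterpart hlh-30 had 49.9, 62.5, 26.1 and 32.2 CPM in granulin 1, against 58.9, 91.5, 63.0 and 99.4 CPM in wild type, and the groups overlapped (-0.92 ± 0.45, limma, Benjamini-Hochberg adjusted p = 0.571). The lysosomal aspartyl protease gene asp-3 had 640, 524, 731 and 652 CPM in granulin 1, against 651, 631, 597 and 2471 CPM in wild type. Its log2 fold change was -0.48 ± 0.56 (adjusted p = 0.877), and 0.01 without wild type replicate 4, the library far above the rest. The lysosomal membrane gene lmp-1 averaged 63.3 ± 22.1 CPM in granulin 1 and 84.5 ± 16.7 CPM in wild type (SD, n = 4 each; adjusted p = 0.859). For unc-119, a neuronal gene often used as a rescue marker in transgenic strains, granulin 1 had 10.2 ± 2.12 CPM and wild type 11.6 ± 2.71 CPM (SD, n = 4 each; adjusted p = 0.882), while granulin 3 was at 49.9 CPM (-2.31 ± 0.24 for granulin 1 minus granulin 3, adjusted p = 6.12e-06).

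Of the 39 lists in all, 32 had no called member. They held 1354 tested genes, counted once per list, of which 135 (9.97%) had an unadjusted p under 0.05, against 8.98% of all genes tested. These genes were spread unevenly, with 32 of 65 sperm genes and 24 of 121 cuticle collagens, but 0 of 78 ribosomal protein genes. With voom none of these lists had a call either. Fits with library weights, which stopped before converging, and with the length slope as a covariate called 9 and 3 of their genes. Besides those above, the lists without a call covered apoptosis and corpse engulfment, the cytosolic, endoplasmic reticulum and mitochondrial stress responses, superoxide dismutases and catalases, F-box B and C genes, cytochrome P450s, UDP-glucuronosyltransferases, glutathione S-transferases, nuclear hormone receptors, transthyretin-like genes, fatty acid desaturases and elongases, ribosomal proteins, the proteasome, histones, the respiratory chain and collagens.

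**Figure D4:**
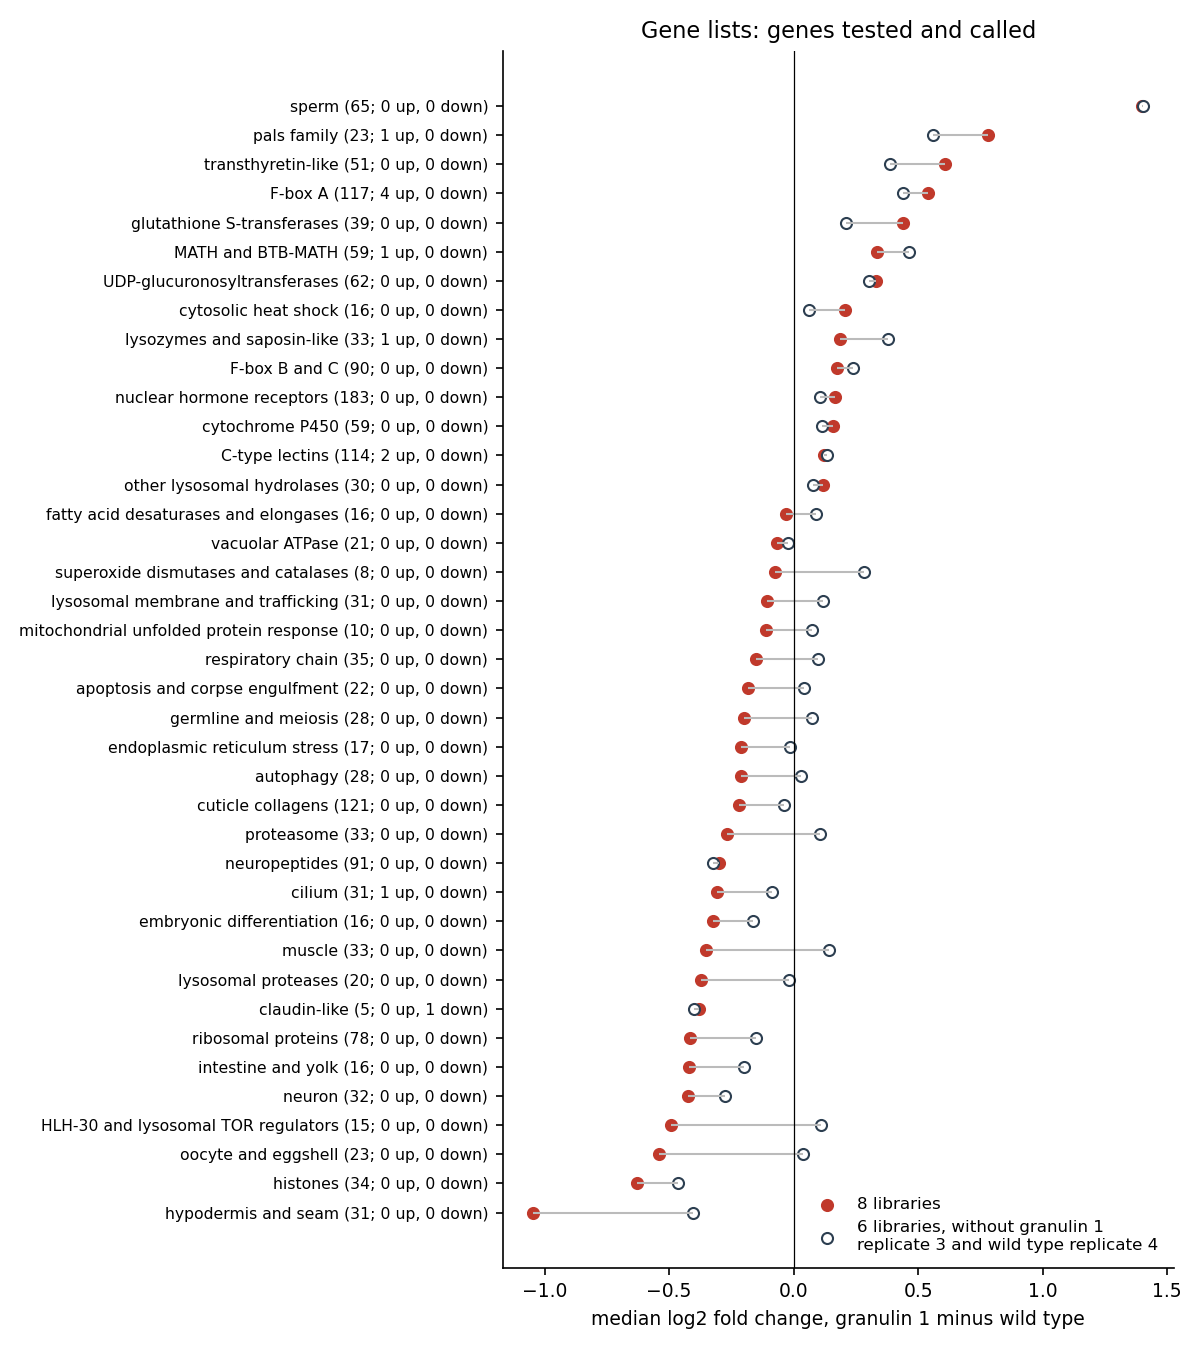
Median log2 fold change, granulin 1 minus wild type, of each gene list, with the number of genes tested and called in brackets. Filled points are all 8 libraries, open points the 6 without granulin 1 replicate 3 and wild type replicate 4. The sperm median is 1.40 in both cases, and that of the oocyte list is -0.54 with all 8 and 0.04 with 6.

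Among the tissue markers, sperm genes lay higher in granulin 1 than in wild type in their mean level, without a called gene. They had a median log2 fold change of 1.40, with 58 of 65 positive and 32 at an unadjusted p under 0.05, but none passed limma with Benjamini-Hochberg adjustment, or voom; library weights called 1. The median was 1.44, 1.23 and 1.40 without granulin 1 replicate 3, wild type replicate 4 or both, and 1.58 on the deposited scale. With another strain in place of the wild type, it was 0.35 for granulin 1 minus null and -1.73 for granulin 1 minus granulin 3. The mean log2 CPM of the list was 0.12, -1.12, -0.98 and -0.65 in granulin 1 replicates 1 to 4, against -1.19, -1.51, -2.42 and -2.43 in wild type, and did not overlap. Their summed level did overlap, at 101 to 285 CPM in granulin 1 and 107 to 231 CPM in wild type, and 0 to 5 of the 65 genes had no read in a granulin 1 library, against 3 to 15 in a wild-type library. The most significant, the major sperm protein gene msp-38, had 2.36 ± 0.63 (adjusted p = 0.16), and it belongs to a family of near-identical copies. In RNA of whole animals, fewer cells of a type and less RNA per cell cannot be told apart. The part of sperm in the 51 calls was not tested.

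Oocyte and eggshell genes were lowest in the libraries that stood apart. Their mean log2 CPM was 9.49, 9.34, 5.20 and 9.52 in granulin 1 replicates 1 to 4, against 9.52, 9.67, 9.24 and 7.38 in wild type. The median log2 fold change was -0.54 with no call among 23 genes, 0.55 without granulin 1 replicate 3 and -1.16 without wild type replicate 4. The summed level of intestine and yolk genes was 4853 to 94110 CPM in granulin 1, with replicate 3 lowest, and 67530 to 365270 CPM in wild type, with replicate 4 highest. Hypodermis and seam genes had a median of -1.05 with no call among 31, and -0.40 without both libraries. Their mean log2 CPM was 0.05, 2.09, 0.68 and 2.09 in wild-type replicates 1 to 4. In granulin 1 it ran from -0.12 to 0.92, and the groups overlapped. Neuron, neuropeptide and muscle genes had medians of -0.42, -0.30 and -0.35 with no call. Without both libraries these medians were -0.28, -0.32 and 0.14. The 28 germline and meiosis genes had a median of -0.20 and the 16 embryonic genes one of -0.32, both with no call. The part of these shifts in the calls was not tested. Without both libraries 48 of the 51 called genes were tested. Of these, 30 kept their call, pgrn-1, F11C3.1, clc-1, ZK228.3 and ZK228.4 among them, and 18 lost it. That fit still held shifts of lists, with a sperm median of 1.40.

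**Figure D5:**
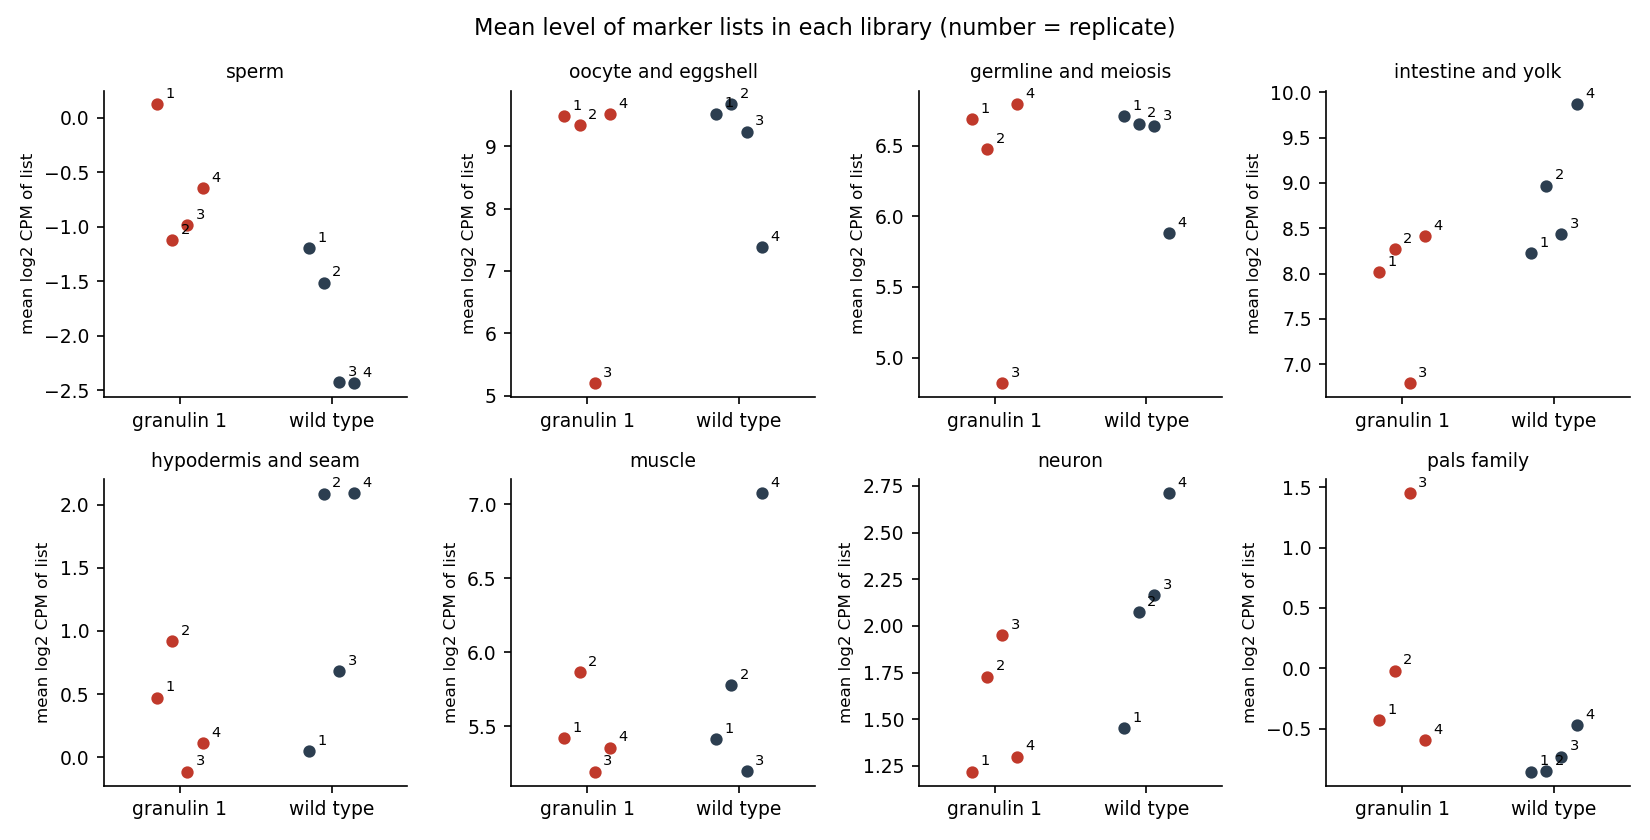
Mean log2 CPM of 8 lists in each granulin 1 and wild-type library, with the replicate number beside each point. Sperm values do not overlap between the strains. Oocyte, germline and intestine values are lowest in granulin 1 replicate 3, and the pals mean is highest there. Intestine, muscle and neuron values are highest in wild type replicate 4.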

How the data were processed

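Total RNA of day 1 adults was sequenced in 20 libraries, 8 of them compared here. Per the labels' protocols, a Qiagen miRNeasy kit gave the RNA and a stranded Illumina TruSeq kit for total RNA the libraries. The authors deposited log2 CPM (read counts relative to library size) per gene; the submitters' processing notes name STAR, HTSeq, edgeR, limma and build ce11, without settings. How the counting treated strand is not stated in them, so overlapping antisense genes may share reads.

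Whole reads were recovered from the steps of the deposited values (prior count 2, tolerance 0.01 reads; 7 values in all were not whole). Genes with at least 0.177 CPM in 4 libraries and 15 reads in all were tested. Log2 CPM with a prior count of 2 and TMM scaling (trimming 30% of ratios and 5% of levels) was fitted with limma 3.58.1 (trend, robust) in R 4.3.3, over all 20 libraries with 1 mean per strain, and p-values were Benjamini-Hochberg adjusted over 15737 genes with a threshold of 0.05. CPM printed are scaled, without prior count. The script was checked on simulated data. Ensembl release 115 (build WBcel235, the same as ce11) gave symbols and coordinates for 46603 of 46778 IDs. Replicate numbers follow accession order. No replicate pair agreed within sampling noise.

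Libraries were grouped by strain label, since another label names AWK33 for all 3 granulin strains. The comparison, the lists and the rule for named genes were chosen with earlier results of these data known. The rule took pgrn-1, the 15 higher and 15 lower genes with the largest fold changes among called genes whose groups did not overlap, called list members, the smallest p of lists without one, and hlh-30, asp-3, lmp-1 and unc-119. Floors and counting intervals cover counting error only. Alternatives changed the scaling, filter, prior count, fit or set of libraries, fitted letter blocks on 12 or 8 libraries, or left out each library or both that stood apart. Fits with a library left out kept the libraries of the other strains.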

Additional observations from a re-analysis of the deposited data

Results flagged for a closer look

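Of 110 groups of 4 libraries looked at, 8 held a library whose gap to the nearest other was unusually large for the group's range (Dixon's test, 95% limit); chance gives about 1 in 20. F11C3.1 in granulin 1 replicate 3 was at 113 CPM, against 64.7 to 67.8 CPM in the other 3 (gap over range 0.917), and in wild type replicate 2 it was at 2.94 CPM, against 3.28 to 3.33 CPM (0.874). In granulin 1 replicate 3, pgrn-1 was at 1035 CPM, against 221 to 283 CPM (0.839), and WBGene00010999 at 7.25 CPM, against 1.91 to 2.18 CPM (0.901). C46A5.1 was at 0.385 CPM in granulin 1 replicate 4, against 0.796 to 0.830 CPM (0.945). In wild type replicate 4, T03D3.5 was at 2.58 CPM, against 7.45 to 8.67 CPM (0.874), WBGene00021055 at 3.05 CPM, against 4.93 to 5.32 CPM (0.864), and asp-3 at 2471 CPM, against 597 to 651 CPM (0.939). Granulin 1 replicate 3 and wild type replicate 4, which account for 6 of these 8, were the libraries with ribosomal RNA shares of 25.9% and 44.8%; the part of those shares was not tested.

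The claudin-like gene clc-1 differed between granulin strains, with a log2 difference of -4.87 ± 0.33 for granulin 1 minus granulin 3 (limma, Benjamini-Hochberg adjusted p = 1.47e-08).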

How the results depend on the processing

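Of 24 alternatives, pgrn-1 kept its call in 22 and its direction in all; in fits of the 8 libraries alone it had 4.45 without the block (adjusted p = 0.0523) and 4.45 with it (adjusted p = 0.365). The count of 51 calls was 20 under upper-quartile scaling, 30 with voom, 33 among protein-coding genes, 9 in a fit of 8 libraries and 14 in a fit of the 12 libraries with letters A to D. It was 97 with the length slope as a covariate, with all 51 kept, and 198 with library weights, a fit that stopped before converging, with 50 kept. Leaving out 1 library gave 27 to 75 calls for the count and 3.89 to 4.80 for pgrn-1. It was 50 on the deposited scale, 52 with median-of-ratios scaling, 48 without the filter, 40 at 1 CPM, and 71 and 43 with prior counts of 0.5 and 5. The causes were not tested; fits of fewer libraries have fewer degrees of freedom. Of the 51, 5 kept their call in each alternative in which they were tested, F11C3.1, ZK228.3 and ZK228.4 among them, and 19 in all 8 fits with a library left out.

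Letters of the sample names paired only some of the libraries. Same-letter correlations of deviations ran from -0.282 to 0.579. In granulin 1, 2 of 4 libraries, replicates 1 and 2, correlated best with their own letter. Granulin 1 replicate 3 correlated best with wild type replicate 4, at 0.575. Letters C and D each hold 1 of these libraries that stood apart, so the 4 pairs cannot decide whether letters pair libraries. With the letter as a replicate block the count was 11 in 12 libraries and 5 in 8 libraries.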

Other observations

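The 15 called genes not yet described, all higher in granulin 1, were chosen after their values were seen. A pair of nematode-specific peptide genes on different chromosomes, nspg-12 and nspg-11, had means of 3.65 and 3.74 CPM in granulin 1, against 0.839 and 1.02 CPM in wild type (2.1 ± 0.33 and 1.90 ± 0.34, limma, Benjamini-Hochberg adjusted p = 0.00379 and 0.0107). Their null means were 2.92 and 3.38 CPM, and granulin 1 minus null gave 0.40 and 0.16 (adjusted p = 0.844 and 0.928). T03D3.5 had 28.3, 19.3, 21.9 and 22.5 CPM in granulin 1, against 8.67, 7.94, 7.45 and 2.58 CPM in wild type (1.91 ± 0.34, adjusted p = 0.0104), and 27.5 CPM in granulin 3 but 5.78 CPM in granulin 2. C25G4.7 had 4.62, 3.05, 1.56 and 2.58 CPM in granulin 1, against 0.629, 1.05, 0.344 and 0.339 CPM in wild type (2.31 ± 0.48, adjusted p = 0.0408), and was also above the null (3.02 ± 0.48, adjusted p = 0.0023) and granulin 3 (1.85 ± 0.48, adjusted p = 0.0275), with 13.6 CPM in granulin 2.

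The pseudogene WBGene00021055 had 12.61, 12.34, 11.8 and 11.2 CPM in granulin 1, against 4.93, 5.25, 5.32 and 3.05 CPM in wild type (1.40 ± 0.26, limma, Benjamini-Hochberg adjusted p = 0.0174), with 1.65 CPM in the null. The protein kinase gene kin-35 was even in granulin 1, with 5.81, 5.95, 5.28 and 6.15 CPM, against 3.07, 2.14, 2.79 and 1.99 CPM in wild type (1.23 ± 0.25, adjusted p = 0.0381), the smallest change called. On chromosome V, outside the stretch around fbxa-189, Y6G8.2 had 2.12 ± 0.39 (adjusted p = 0.0143), T05E12.3 had 2.04 ± 0.41 (0.033) and Y43F8B.14 had 2.25 ± 0.44 (0.0249). The other 6, Y54F10BM.3, D1044.1, C46A5.1, btb-17, Y110A2AL.3 and M163.8, had log2 fold changes of 1.68, 1.38, 2.00, 1.41, 1.95 and 2.49 (adjusted p between 0.0153 and 0.044). With 1 library left out, nspg-12 kept its call in all 8 fits, nspg-11 lost it without wild type replicate 3 (0.065), T03D3.5 without granulin 1 replicate 1 (0.0526), and the other 12 kept it in 1 to 5 of 8 fits.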
